A study of Homo sapiens with 12 samples.

Results

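The IFIT genes, IFIT1, IFIT2, IFIT3 and IFIT5, were followed across 12 RNA libraries of Cal27 and HN30, established human cell lines of head and neck squamous cell carcinoma (HNSCC). The rows of the members were found by their symbols: 4 of the 60099 rows of the gene table carry these symbols, and 8 of the 201521 rows of the transcript table belong to them. Untreated cells are the samples of letters A and D, cells given 20 ng/ml of IFNα, a type I interferon, are B and E, and cells given 200 ng/ml are C and F, all with a 24 h treatment. A letter followed by its replicate number, 1 or 2, names a sample, as in A1, and no source used here says whether these were separate cultures, so the tests measure the spread between these samples, which may be technical. The samples fall into line sets A-C and D-F, taken as the 2 lines, and which set is which line is not given. The sample titles speak of a low dose only, and its 20 ng/ml is stated in the study's design text.

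Type I interferon binds a receptor on the cell surface, and the kinases JAK1 and TYK2 then activate the factor ISGF3, of which STAT2 and IRF9 are parts. ISGF3 binds interferon-stimulated response elements in the promoters of antiviral genes, among which the IFIT genes are textbook examples. Their proteins are built of tetratricopeptide repeats and have no known enzyme activity. IFIT1 binds capped RNA that lacks the methyl mark of host messages, IFIT2 binds AU-rich RNA, IFIT3 binds IFIT1 and stabilises it, and IFIT5 binds RNA with a triphosphate at its 5′ end. Members of the family also bind the translation factor eIF3.

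The 4 genes lie near each other on the plus strand of chromosome 10 (GRCh38), in the order IFIT2 (chr10:89283694-89309276), IFIT3 (chr10:89327894-89340971), IFIT1 (chr10:89392546-89406486) and IFIT5 (chr10:89414586-89421001). IFIT2, IFIT3 and IFIT1 lie within the annotated span of LIPA, a lysosomal lipase gene on the minus strand, whereas IFIT5 lies outside it. The libraries kept the strand of origin. Because the genes were followed for their response to interferon, the promoter stretches that hold the core letters of the response element are shown first, with every match in capitals. They come from RefSeq promoter windows on GRCh38.p14, which run from 250 bases before to 50 bases after a gene start. IFIT1, IFIT3 and IFIT5 were matched to these windows by symbol and IFIT2 was not, and IFIT3 has 2 windows, 1 at the first exon of each of its annotated transcripts.

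The stretches, read 5′ to 3′ on the plus strand, are those of IFIT1 (chr10:89392487-89392545), IFIT3 at the first exon of transcript IFIT3-202 (chr10:89327821-89327893), IFIT3 at the first exon of transcript IFIT3-201 (chr10:89332415-89332487) and IFIT5 (chr10:89414503-89414573).
IFIT1: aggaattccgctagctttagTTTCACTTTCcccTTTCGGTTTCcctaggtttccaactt
IFIT3, at IFIT3-202: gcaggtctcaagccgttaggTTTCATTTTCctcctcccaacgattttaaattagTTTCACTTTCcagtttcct
IFIT3, at IFIT3-201: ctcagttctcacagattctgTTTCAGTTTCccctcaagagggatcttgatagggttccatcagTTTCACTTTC
IFIT5: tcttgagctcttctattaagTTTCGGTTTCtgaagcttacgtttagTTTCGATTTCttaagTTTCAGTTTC

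The motif searched was GAAA repeated after any 2 bases, read on both strands, so that on the strand shown it appears as TTTC, any 2 bases and TTTC again. The IFIT1 window held 2 matches, which begin 116 and 103 bases before the RefSeq start. Both IFIT3 windows held 2 matches, 156 and 122 bases before the RefSeq start in the first exon of IFIT3-202 and 94 and 51 bases before the RefSeq start in the first exon of IFIT3-201. In GENCODE, IFIT3-202 begins at base 89327894 and IFIT3-201 at base 89332484, ahead of these RefSeq starts, and the last match of the IFIT3-201 stretch (bases 89332478 to 89332487) runs across that beginning. The IFIT5 window held 3, which begin 45, 19 and 4 bases before the start, so the last of them runs across it. Of all 35116 windows in the table, 3.57% held at least 1 match, 0.259% at least 2 and 0.0370% at least 3. Windows of the genes called higher at 200 ng/ml, the members included, held a match in 30.2% of 212, against 2.72% of 15659 windows of genes tested and not called higher. These windows cover 159 of 284 symbols called higher and 10764 of 17904 others. In the gene lists described below, with at most 17 windows each, the share ran from 0% to 50%. It was highest in the interferon ligands, of which none was called. The matches describe the letters of these windows and are not measured binding.

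Total estimated counts ranged from 12670755 to 16056734 in the controls, from 11174407 to 14865450 at 20 ng/ml and from 10517448 to 11854183 at 200 ng/ml, so every sample at 200 ng/ml was shallower than every control, and the part of depth in the results below was not tested beyond the scaling for depth in the fits and in TPM, a unit scaled for length and depth. Pearson's r of log2 values over 13034 genes was 0.944 to 0.979 in 30 pairs from the same line set and 0.722 to 0.758 in 36 pairs from different sets. The 8 squamous markers summed to between 2733 and 3350 TPM in A-C and between 1186 and 1487 TPM in D-F, where KRT14, a basal keratin, was under 1 TPM. The 5 leukocyte markers summed to between 2.64 and 7.02 TPM, with CD3E and PTPRC under 1 TPM in every sample, CSF1R between 1.48 and 5.502 TPM and CD14 at up to 2.29 TPM. The 4 fibroblast markers summed to between 5.41 and 15.2 TPM, with DCN under 1 TPM in every sample and COL1A1 between 3.43 and 13.0 TPM. The 3 endothelial markers summed to between 15.3 and 21.7 TPM in A-C, nearly all of it CDH5, and to at most 0.733 TPM in D-F, while PECAM1 and VWF stayed under 1 TPM.

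All 4 IFIT genes were called higher at both doses, both over all 12 samples and within each line set. The median log2 fold change of the 4 genes was 3.18 at 200 ng/ml and 2.57 at 20 ng/ml, beside medians of -0.01 and -0.01 over all 19944 genes tested. Called means a difference of 2-fold or more whose p, adjusted by Benjamini and Hochberg's method over all genes, was at most 0.05 in edgeR's quasi-likelihood test. Over all genes, 1.58% were called higher at 200 ng/ml and 0.963% at 20 ng/ml. The shares within line sets were 1.41% in A-C and 1.67% in D-F at 200 ng/ml, and 0.632% and 1.2% at 20 ng/ml. The 2 doses were compared with the same control samples. All 4 members passed edgeR's filter on low counts, and their lowest count in any sample was 264. In bulk RNA, more transcripts in every cell and more cells that respond cannot be told apart.

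**Figure D1:**
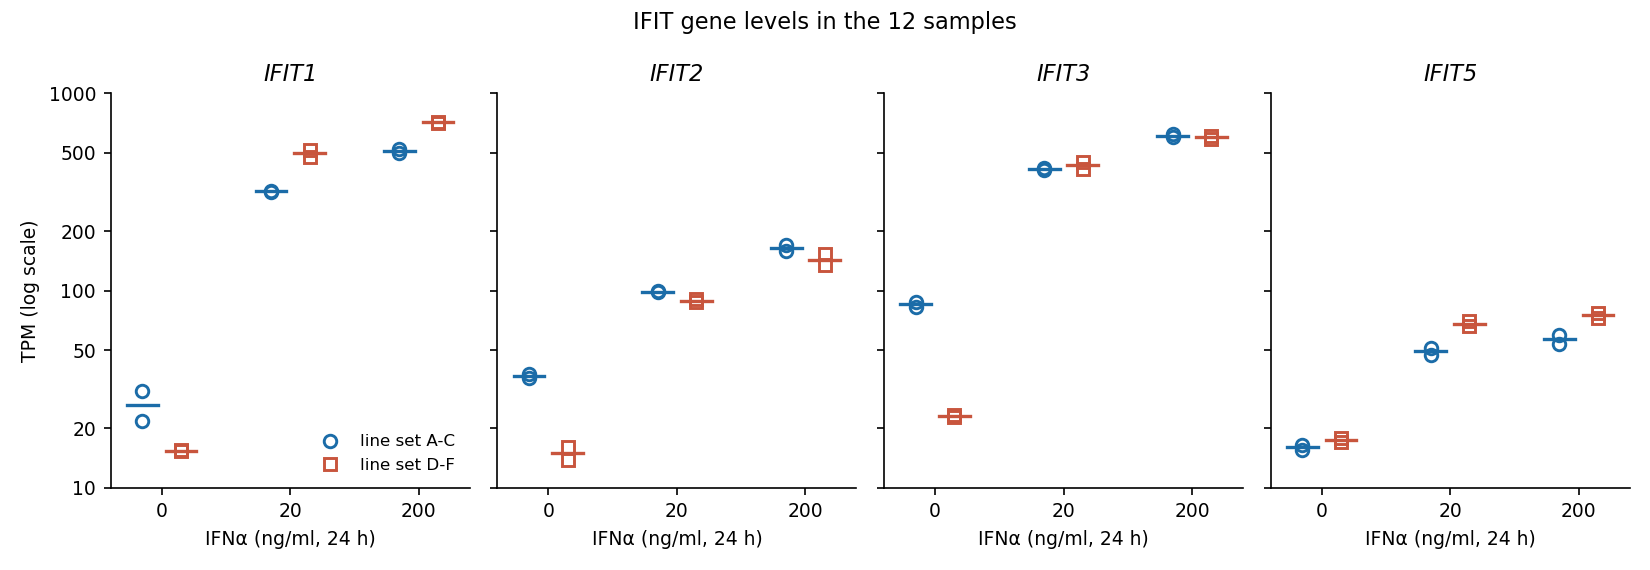
TPM on a log scale (vertical) against IFNα dose in ng/ml (horizontal) for each IFIT gene, with circles for the samples of line set A-C, squares for D-F and short lines for the mean of the 2 replicates. Every treated sample lies above every control of its own line set, and in IFIT3 the untreated samples of A-C, at 82.9 and 87.3 TPM, lie far above those of D-F, at 22.9 and 23.3 TPM.

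IFIT1, the sensor of incompletely methylated caps, had the largest response of the 4 genes. In A-C its level was 31.1 and 21.8 TPM in the controls, 318 and 319.8 TPM at 20 ng/ml and 498 and 523 TPM at 200 ng/ml. In D-F it was 15.5 and 15.3 TPM in the controls, 478 and 519 TPM at 20 ng/ml and 721 and 710.2 TPM at 200 ng/ml. No treated sample overlapped a control, and the samples at the 2 doses did not overlap within a line set. Over all samples IFIT1 was 29.2-fold higher at 200 ng/ml (log2 change 4.87, SE 0.10, edgeR adjusted p = 2.2e-09) and 19.1-fold higher at 20 ng/ml (4.26 ± 0.10, adjusted p = 5.21e-09), where the value after ± is the SE, as in all log2 values that follow. It ranked 28th and 35th by log2 fold change among the 19944 genes at 200 and 20 ng/ml.

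IFIT3, the partner that stabilises IFIT1, was the most abundant member in every untreated sample. Its level in A-C was 82.9 and 87.3 TPM in the controls, 421 and 412 TPM at 20 ng/ml and 600.4 and 622 TPM at 200 ng/ml. In D-F the controls had 22.9 and 23.3 TPM, the samples at 20 ng/ml 414 and 449 TPM and those at 200 ng/ml 611 and 588 TPM. The treated samples of the 2 line sets were thus close together at each dose, whereas the controls were far apart. IFIT3 was 13.4-fold higher at 200 ng/ml (log2 fold change 3.74 ± 0.06, adjusted p = 8.05e-10, edgeR) and 9.35-fold higher at 20 ng/ml (3.23 ± 0.06, adjusted p = 2.05e-09).

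IFIT2, which binds AU-rich RNA and is linked to cell death, responded less. In A-C it stood at 36.02 and 37.7 TPM in the controls, 98.0 and 99.9 TPM at 20 ng/ml and 171 and 159 TPM at 200 ng/ml. In D-F the values were 16.2 and 13.9 TPM in the controls, 90.8 and 87.4 TPM at 20 ng/ml and 153 and 135 TPM at 200 ng/ml. Controls, low dose and high dose again formed 3 levels that did not overlap within a line set. The difference from control was 6.16-fold at 200 ng/ml (log2 fold change 2.62 ± 0.08, adjusted p = 2.5e-08, edgeR) and 3.78-fold at 20 ng/ml (1.92 ± 0.08, adjusted p = 3e-07).

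IFIT5, which binds RNA with a 5′ triphosphate and does not join the complex of the other members, had the lowest treated level, and its response was the smallest of the 4 except at 20 ng/ml in A-C, where that of IFIT2 was smaller. Its level in A-C was 15.6 and 16.6 TPM in the controls, 47.4 and 51.2 TPM at 20 ng/ml and 53.7 and 59.7 TPM at 200 ng/ml. In D-F it was 18.0 and 17.1 TPM in the controls, 66.1 and 70.1 TPM at 20 ng/ml and 77.0 and 73.0 TPM at 200 ng/ml. Its control levels were near each other in the 2 line sets, unlike those of the other members. IFIT5 was 3.78-fold higher at 200 ng/ml (log2 fold change 1.92 ± 0.06, adjusted p = 6.77e-08, edgeR) and 3.36-fold higher at 20 ng/ml (1.75 ± 0.06, adjusted p = 1.65e-07).

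On the log2 scale, the step from 20 to 200 ng/ml was smaller than the step from control to 20 ng/ml in each of the 4 genes. In TPM this did not hold for IFIT2 in A-C, with means of 36.87, 98.96 and 165.1 TPM at 0, 20 and 200 ng/ml. In D-F its means were 15.02, 89.08 and 143.7 TPM, and the first step was the larger. None of the 4 genes reached 2-fold between the doses, and over all genes 0.0451% were called in either direction in that comparison. The difference had an adjusted p under the threshold in 3 genes: 1.63-fold in IFIT2 (log2 0.70 ± 0.07, adjusted p = 0.0112, edgeR), 1.52-fold in IFIT1 (0.61 ± 0.09, adjusted p = 0.0372) and 1.43-fold in IFIT3 (0.51 ± 0.05, adjusted p = 0.0113). For IFIT5 the log2 difference was 0.17 ± 0.06 (95% interval 0.03 to 0.31, adjusted p = 0.448, edgeR, unadjusted p = 0.0216). The mean TPM at 20 ng/ml, as a percent of that at 200 ng/ml, was 86.9% in A-C and 90.8% in D-F for IFIT5. The same percent was between 60.0% and 72.0% for the other 3 genes in the 2 line sets. With single samples left out in turn, the log2 difference ran from 0.55 to 0.65 for IFIT1 and from 0.66 to 0.74 for IFIT2. For IFIT3 it ran from 0.46 to 0.56. Each of these 3 genes had an adjusted p over 0.05 in some of these fits, and IFIT1 in most of them.

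IFIT3 and IFIT2 differed between the line sets before treatment, and at neither dose was a member called between them. Untreated, IFIT3 was 4.03-fold lower in D than in A (log2 difference -2.01 ± 0.08, adjusted p = 1.89e-07, edgeR) and IFIT2 2.61-fold lower (-1.38 ± 0.11, adjusted p = 7.99e-06), and both were called. IFIT1 was 1.83-fold lower (-0.87 ± 0.13, adjusted p = 0.0005), short of the 2-fold threshold. With single samples left out, its log2 difference ran from -1.08 to -0.63, and it was past 2-fold only without A2 (-1.08). For IFIT5 the log2 difference was -0.01 ± 0.09, with a 95% interval from -0.21 to 0.20 and an adjusted p of 0.965 in edgeR. Of all genes, 26.6% were called between the untreated line sets, so 2 members called of 4 stand beside a high background.

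At 20 ng/ml none of the members was called between E and B, beside 26.2% of all genes, and at 200 ng/ml none was called between F and C, beside 28.4%. At 20 ng/ml the log2 difference was 0.46 ± 0.12 for IFIT1 (adjusted p = 0.0116, edgeR) and -0.35 ± 0.10 for IFIT2 (adjusted p = 0.0194). It was 0.27 ± 0.09 for IFIT5 (adjusted p = 0.0291) and -0.13 ± 0.08 for IFIT3 (adjusted p = 0.188), all short of 2-fold. At 200 ng/ml the log2 difference between F and C was -0.43 ± 0.10 for IFIT2 (adjusted p = 0.00701, edgeR), which keeps the side of the untreated difference at a smaller size. It was -0.24 ± 0.08 for IFIT3 (adjusted p = 0.0256), 0.26 ± 0.12 for IFIT1 (adjusted p = 0.11, 95% interval -0.02 to 0.53) and 0.18 ± 0.09 for IFIT5 (adjusted p = 0.118, 95% interval -0.02 to 0.38). By TPM, IFIT1 was lower in D-F than in A-C without interferon, while at each dose of interferon both its values were higher in D-F. In the fit, the interval of its difference at 200 ng/ml spanned both signs.

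**Figure D2:**
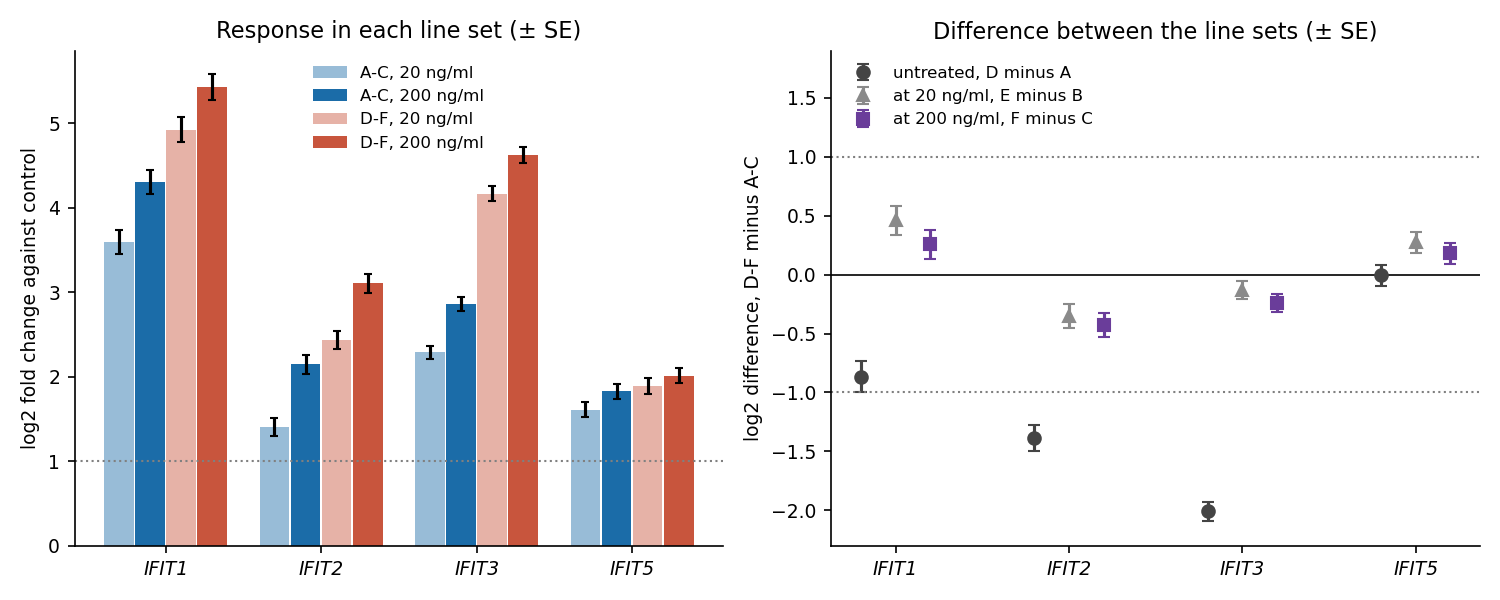
Left, log2 fold change against the control of the same line set (vertical) for each IFIT gene (horizontal), with bars for line set A-C in blue and D-F in red, pale at 20 ng/ml and full at 200 ng/ml, and whiskers for the SE. Right, log2 difference between the line sets (D-F minus A-C) at each dose with its SE, where IFIT3 moves from -2.01 untreated to -0.24 at 200 ng/ml and dotted lines mark 2-fold.

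The response itself, tested as an interaction of dose and line set, was larger in D-F for IFIT3 and IFIT1. IFIT3 was 7.24-fold higher at 200 ng/ml in A-C and 24.6-fold in D-F, a log2 difference of 1.77 ± 0.11 (adjusted p = 0.000747, edgeR). IFIT1 was 19.8-fold higher in A-C and 43.1-fold in D-F, a log2 difference of 1.12 ± 0.18 (adjusted p = 0.0201). These 2 of 4 members were called, beside 0.998% of all genes in either direction. With the replicate number as a block in the fit, 1 member in place of 2 was called.

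IFIT2, 4.42-fold higher in A-C and 8.59-fold in D-F, had a log2 difference of 0.96 ± 0.15 (adjusted p = 0.0177, edgeR), just under the 2-fold threshold. IFIT5, 3.54-fold and 4.03-fold higher, had a log2 difference of 0.19 ± 0.13 (95% interval -0.10 to 0.47, adjusted p = 0.481). At 20 ng/ml, IFIT3 (1.88 ± 0.11, adjusted p = 0.000436), IFIT1 (1.33 ± 0.18, adjusted p = 0.0185) and IFIT2 (1.03 ± 0.15, adjusted p = 0.0223) were called, beside 0.231% of all genes, and IFIT5 was not (0.28 ± 0.13, adjusted p = 0.482). With the replicate number as a block, 1 member in place of 3 was called at 20 ng/ml. The differences in response and the difference between the untreated line sets use the same control samples, so they are not separate evidence.

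Without D2 or F1 the number of members called for a different response at 200 ng/ml fell from 2 to 1. At 20 ng/ml it fell from 3 to 1 without B1, B2, D2, E1 or E2. IFIT3 was called in all 12 of these fits at both doses, with a log2 difference at 200 ng/ml between 1.71 and 1.83. The adjusted p of IFIT1 at 200 ng/ml lay between 0.0565 and 0.089 without D1, D2, F1 or F2, and its log2 difference was 0.88 without A1, its higher control.

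The order of the 4 levels was not the same with and without interferon. In untreated A-C cells it was IFIT3, IFIT2, IFIT1 and IFIT5, each apart from the next in both samples. In untreated D-F cells it was IFIT3 and IFIT5, followed by IFIT1 and IFIT2, whose samples overlapped at 15.3 to 15.5 and 13.9 to 16.2 TPM. In treated A-C samples the order at both doses was IFIT3, IFIT1, IFIT2 and IFIT5, and in treated D-F samples IFIT1, IFIT3, IFIT2 and IFIT5. IFIT3 exceeded IFIT1 by 1.20 times in A-C at 200 ng/ml, and IFIT1 exceeded IFIT3 by 1.19 times in D-F, with no overlap of the 2 samples on either side.

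Counted together, the 4 genes summed to 165 ± 1.61 TPM (SD, n = 2) in untreated A-C cells and to 71.1 ± 2.07 TPM in untreated D-F cells. At 200 ng/ml the sums were 1344 ± 28.2 TPM in A-C and 1534 ± 39.6 TPM in D-F. Their share of all estimated counts went from 0.0273% to 0.194% in A-C and from 0.0125% to 0.207% in D-F. Which line set had the higher share at 200 ng/ml depended on the scaling. With library sizes scaled by the TMM factors of the fits, the share was 0.207% in C1 and 0.208% in C2, against 0.203% in F1 and 0.194% in F2.

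Within that sum, IFIT1 gained share while IFIT2 and IFIT5 lost it. IFIT1 made up 18.9% ± 3.96 (SD, n = 4) of the summed TPM in the controls and 42.3% ± 5.02 at 200 ng/ml. IFIT2 went from 21.8% ± 1.35 to 10.8% ± 1.80, and IFIT5 from 17.2% ± 8.62 to 4.55% ± 0.41. For each of these 3 genes all 4 treated samples lay on the same side of all 4 controls, and the two-sided exact permutation p, with doses exchanged within line sets, was 0.0556, the smallest that the 36 arrangements allow, so these shares could not pass 0.05.

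IFIT3 held 42.1% ± 11.2 in the controls and 42.3% ± 3.70 at 200 ng/ml (exact permutation p = 1). That mean joins opposite movements, from 51.8% to 45.5% in A-C and from 32.5% to 39.1% in D-F. The difference of IFIT3 over all samples was 0.15 percentage points. Without C1 (-0.87), C2 (-0.95), D1 (-3.38) or D2 (-2.73) the plain difference of means was negative. Leaving out a sample also changes the mix of line sets in those means, so these signs do not show a change within line sets. From 20 to 200 ng/ml the share of IFIT5 fell further, from 5.92% ± 0.43 to 4.55% ± 0.41, and that of IFIT1 went from 41.0% ± 5.63 to 42.3% ± 5.02. The share of IFIT2 rose at this step, from 9.71% ± 1.77 to 10.8% ± 1.80, and that of IFIT3 fell from 43.4% ± 4.31 to 42.3% ± 3.70. The exact permutation p was 0.0556 for each member.

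**Figure D3:**
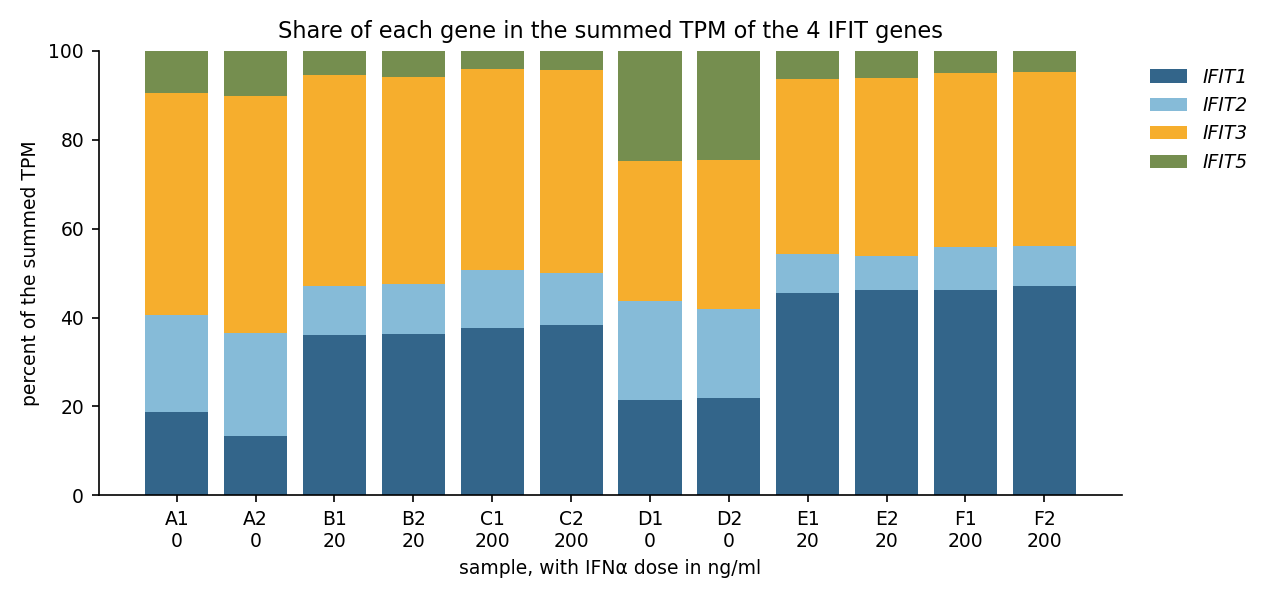
Percent of the summed TPM of the 4 IFIT genes (vertical, from 0 to 100) held by each gene in each of the 12 samples (horizontal, with the IFNα dose in ng/ml under the sample name). The IFIT1 segment widens from between 13.3% and 22.0% in the controls to between 37.6% and 47.2% at 200 ng/ml, while the IFIT5 segment narrows from between 9.43% and 24.8% to between 4.06% and 4.93%.

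The annotation gives 8 protein-coding transcripts for the 4 genes, and their estimated counts add up to the gene counts. Of these 8, 5 were called higher at 200 ng/ml, beside 0.343% of the 75876 transcripts tested, and the same 5 at 20 ng/ml, beside 0.24%: IFIT1-201, IFIT1-202, IFIT2-202, IFIT3-202 and IFIT5-201. IFIT1-201 carried between 97.2% and 99.1% of the TPM of IFIT1 in every sample. Its exonic bases all lie within IFIT1-202, whose estimate in C2, 423 counts, was well above that in C1, 154 counts. IFIT5 has a single annotated transcript, so its gene and transcript values are the same.

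IFIT2-202 held the larger part of the TPM of IFIT2 in every sample except D1, where it held 39.3% and IFIT2-201 held 59.9%. Other IFIT2 transcripts share 100% of the exonic bases of IFIT2-202 and 89.1% of those of IFIT2-201, so this division rests on estimates. IFIT2-202 rose from 30.1 and 27.8 TPM to 157 and 143 TPM at 200 ng/ml in A-C and from 6.36 and 10.7 TPM to 144 and 122 TPM in D-F (log2 fold change 3.07 ± 0.18, adjusted p = 0.000472, edgeR). IFIT2-201, with an exon structure that extends further at both ends, had 5.49 and 9.19 TPM in A, 14.0 and 15.3 TPM in C, 9.68 and 3.16 TPM in D and 8.88 and 13.2 TPM in F. Its log2 fold change of 0.80 ± 0.41 did not pass the test (adjusted p = 0.62, edgeR). IFIT2-203, which starts at base 89283694, upstream of the starts of the other 2 at bases 89301955 and 89302046, had between 9 and 28 counts in A-C, 5 in D1 and 0 in the other samples of D-F.

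The 2 transcripts of IFIT3 share their last exon of 2311 bases, which holds 94.1% of IFIT3-201 and 92.6% of IFIT3-202, and differ only in the first exon (144 and 185 bases). In A-C and in untreated D-F cells both were present, IFIT3-201 with between 37.6% and 57.1% of the gene's TPM. In treated D-F cells the division differed between replicates: IFIT3-201 had 1897 counts in E1 and 70 in E2, and 2065 in F1 and 70 in F2. The gene sums of these samples, 414 and 449 TPM and 611 and 588 TPM, were close. IFIT3-202 was called (log2 fold change 4.22 ± 0.19, adjusted p = 0.000154, edgeR), and IFIT3-201 was not (2.46 ± 1.12, adjusted p = 0.583). The cause of the uneven division was not tested.

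**Figure D4:**
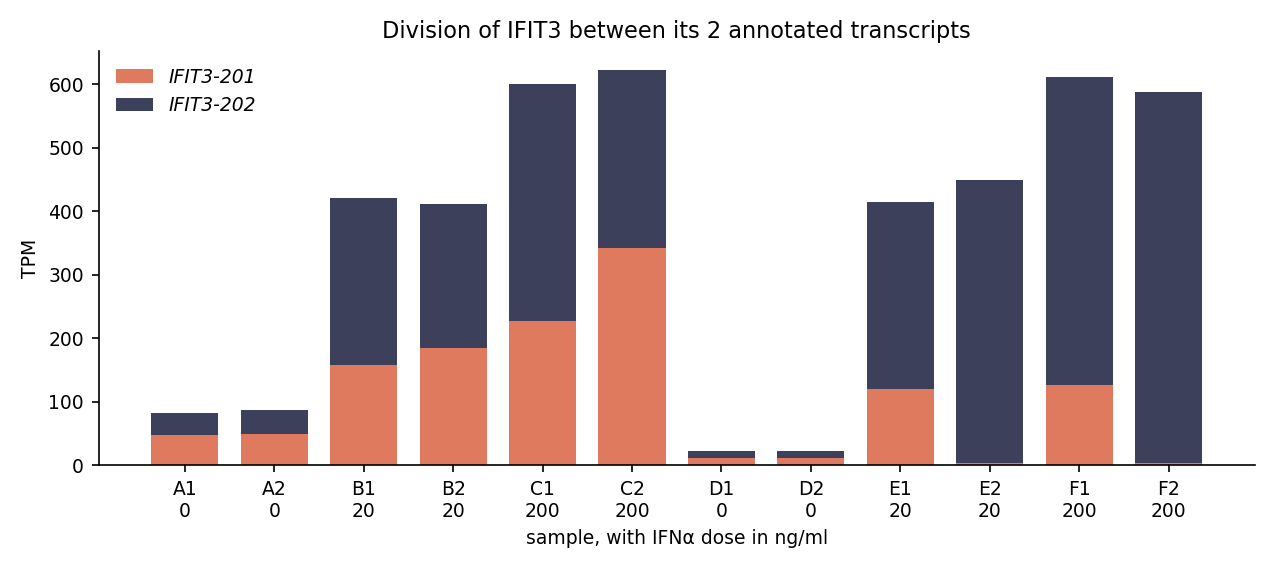
TPM (vertical) of IFIT3-201 and IFIT3-202 stacked for each of the 12 samples (horizontal, with the IFNα dose in ng/ml). The full height is even between replicates, while the lower segment, IFIT3-201, is 120 TPM in E1 and 127 TPM in F1 but 4.02 TPM in E2 and 4.16 TPM in F2.

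Among the genes that carry the interferon signal, STAT2 and IRF9, which encode parts of ISGF3, rose at both doses, and the 4 genes of the receptor chains and kinases did not pass the test at either. At 200 ng/ml the log2 fold change was 1.80 ± 0.08 for STAT2 (adjusted p = 6.8e-07, edgeR) and 2.69 ± 0.13 for IRF9 (adjusted p = 1.03e-06). The lowest value was that of the receptor chain IFNAR1 (-0.11 ± 0.07, adjusted p = 0.384).

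Of 8 genes that restrain the signal, USP18, which blocks the receptor (4.16 ± 0.11, adjusted p = 1.37e-08, edgeR), and ISG15, a ubiquitin-like protein that stabilises USP18 (4.20 ± 0.16, adjusted p = 1.88e-07), were called higher at both doses. The other 6, among them SOCS1 and SOCS3, were not, and the lowest was the phosphatase gene PTPN2 (-0.05 ± 0.08, adjusted p = 0.783). Of 7 interferon ligands, only IFNE, an epithelial interferon, had enough counts to be tested (-0.22 ± 0.26, adjusted p = 0.684), and IFNB1 had at most 4 counts in any sample. None of the ligands was called at either dose.

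Of 9 genes of RNA sensing and direct induction, which can switch on IFIT genes without interferon, 4 were called higher at each dose. These were DDX58, the sensor RIG-I (2.83 ± 0.06, adjusted p = 2.55e-09, edgeR), IFIH1, the sensor MDA5 (2.75 ± 0.07, adjusted p = 1.42e-08), DHX58 (2.62 ± 0.09, adjusted p = 9e-08) and the factor IRF7 (2.81 ± 0.16, adjusted p = 3.26e-06). The adaptor gene MAVS had the lowest value (-0.45 ± 0.05, adjusted p = 0.000355), short of 2-fold. The other RNA-directed effectors had the highest median, 2.96 over 9 genes, with 7 called higher at 200 ng/ml and 6 at 20 ng/ml. The highest was OAS2, a synthetase switched on by double-stranded RNA (5.46 ± 0.11, adjusted p = 1.91e-09, edgeR), and ZC3HAV1, which binds viral RNA, was not called (0.79 ± 0.06, adjusted p = 5.57e-05). The gene called at 200 ng/ml alone was ADAR, an RNA editor (1.17 ± 0.06, adjusted p = 1.46e-06, and 0.97 ± 0.06 at 20 ng/ml).

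Capping enzymes place the marks that IFIT1 reads. Of the 5 listed, CMTR1, which adds the methyl mark that keeps host messages from IFIT1, was called at 200 ng/ml (1.02 ± 0.07, adjusted p = 2.5e-05, edgeR), close to the 2-fold threshold, and not at 20 ng/ml (0.87 ± 0.07). Its call at 200 ng/ml was lost without A1, C1 or F1, and with no filter on low counts. The lowest of the 5 was RNGTT, the enzyme that starts the cap (-0.14 ± 0.09, adjusted p = 0.398). None of the 13 genes of eIF3, a binding partner of IFIT proteins, was called in either direction. Of all genes, 1.58% were called higher and 0.552% lower at 200 ng/ml, so this count is near those shares. The values of these genes ran from -0.45 ± 0.06 in EIF3H (adjusted p = 0.00142) to 0.33 ± 0.09 in EIF3M (adjusted p = 0.0481), with a median of -0.16.

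**Figure D5:**
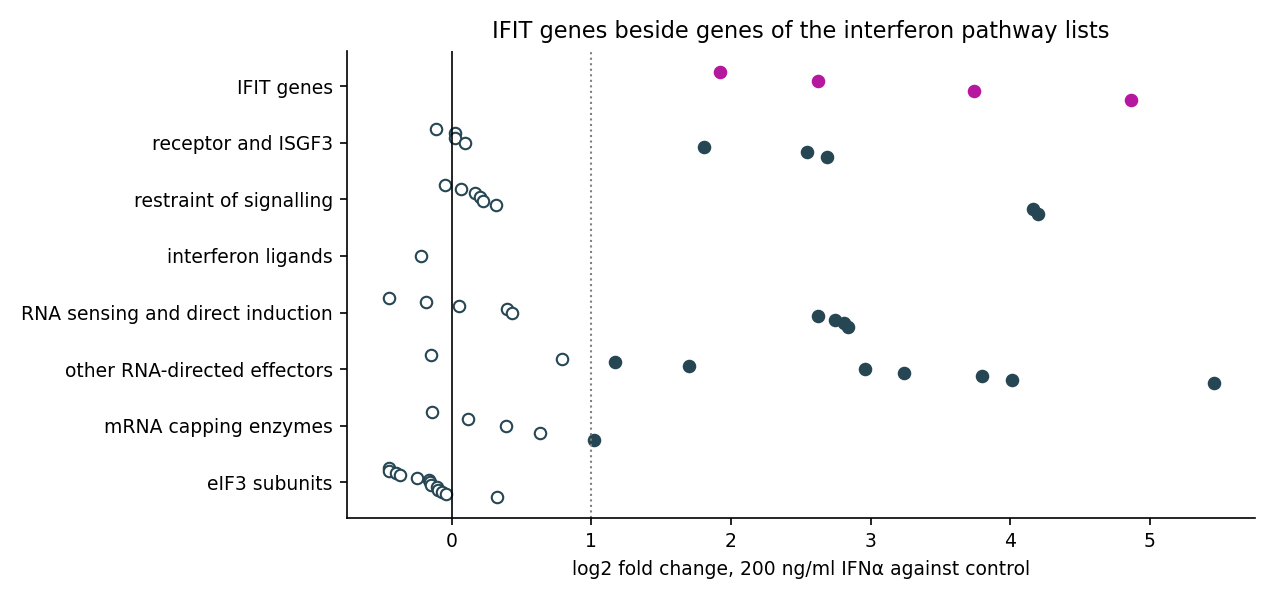
Log2 fold change at 200 ng/ml against control (horizontal) for the 4 IFIT genes and for the tested genes of each pathway list (rows), with filled points for genes called higher, open points for genes not called and a dotted line at 2-fold. The IFIT genes lie between 1.92 and 4.87, within the range of the called genes of the other lists, which runs from 1.02 to 5.46.

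Of 15 other genes on the same part of chromosome 10, 11 were tested. None was called at 200 or 20 ng/ml in the contrasts averaged over the line sets. Of all genes, 1.58% were called higher and 0.552% lower at 200 ng/ml, and 0.963% higher at 20 ng/ml. The count among these neighbours is thus near the shares over all genes. An average can hide opposite changes, as in KIF20B at 200 ng/ml. Its log2 fold change was 0.53 ± 0.09 in A-C (adjusted p = 0.00864, edgeR) and -0.62 ± 0.09 in D-F (adjusted p = 0.00264). The difference in its response was called (-1.16 ± 0.12, adjusted p = 0.00411), beside 0.998% of all genes in either direction. LIPA, on the opposite strand across 3 of the members, was at 60.1, 55.6 and 53.3 TPM in A-C and at 98.2, 104 and 114 TPM in D-F at 0, 20 and 200 ng/ml (log2 fold change 0.10 ± 0.07, adjusted p = 0.4, edgeR). The 2 rows with the most extreme values of this list, AL353751.1 and the assembled row MSTRG.8725, overlap the upstream part of IFIT2 on the same strand and had at most 22 and 34 counts, so no fold is given for them. SLC16A12, the next gene beyond IFIT5, had between 2 and 59 counts (0.03 ± 0.39, adjusted p = 1).

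Other rows with an IFIT name were near the floor. IFIT1B, which lies between IFIT3 and IFIT1 on the same strand, had between 0 and 8 counts, and its promoter window held no match of the motif. The pseudogene IFIT6P had at most 1 count. The pseudogene IFIT1P1, on chromosome 13, had between 9 and 41 counts and was not called (0.55 ± 0.28, adjusted p = 0.27, edgeR). Reads of an IFIT1 copy that were placed on another copy cannot be seen in these tables.

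The genes that followed each member most closely were found by Pearson's r of log2 CPM (counts scaled for depth) over the 12 samples. These correlations describe 12 points that fall into treated and untreated groups and share their libraries, and no test was made. For IFIT1 the closest included OAS1 and PARP14 (r = 0.998 and 0.997), IFI44 (0.996) and OAS3 (0.995). For IFIT3 they were OAS2 (0.997), DTX3L (0.993), IFI6 (0.992), PARP9 (0.991) and USP18 (0.991).

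For IFIT5 the closest were OAS3 (0.995), RSAD2 (0.994), IFIH1 (0.991), SAMD9 (0.990) and IFI44 (0.990), so that 2 of its 5, OAS3 and IFI44, were also on the list of IFIT1. For IFIT2 they were the chemokine gene CXCL10 (0.990), N4BP1 (0.987), LAP3 (0.985), C5orf56 (0.984) and OAS2 (0.982). Between members the correlation ran from 0.896 for IFIT2 with IFIT5 to 0.989 for IFIT1 with IFIT5. After the mean of each line set was subtracted, it ran from 0.971 for IFIT2 with IFIT5 to 0.994 for IFIT1 with IFIT5.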

How the data were processed

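RNA of 12 samples of Cal27 and HN30 cells was sequenced after removal of rRNA, with strand kept. The authors deposited estimated counts per gene and transcript in whole numbers, and TPM and FPKM values scaled for length and depth. The submitters' processing notes name Trimmomatic 0.36, HISAT2 2.1.0, StringTie 1.3.3b and GRCh38.p10, without their roles. FPKM as deposited was not used further. Reads of transcripts that share exons are divided by estimate, which moves transcript values but not gene sums.

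Counts were tested with edgeR 4.0.16 in R 4.3.3 (TMM, filterByExpr, quasi-likelihood test, 6 letter groups, contrasts averaged over line sets, Benjamini-Hochberg over 19944 genes or 75876 transcripts), and SE is the log2 change divided by the square root of F. DESeq2 1.42.0, other scalings, filters, samples and call rules were alternatives. The 95% intervals use the t distribution. The fits were tested on simulated data. Total counts per sample of 10517448 to 16056734 and 2 replicates per letter limit the precision. Counts of a letter's replicates differed beyond counting error, with a chi-square of 10.6 to 14.8 times its degrees of freedom. Exact permutation tests exchanged doses within line sets. Python 3.11.15 with pandas 2.3.3, numpy 2.4.6, scipy 1.17.1 and matplotlib 3.10.9 made tables and figures. Transcripts and exons are from GENCODE release 29.

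The members and gene lists were chosen with earlier results of these data known. From each list the text names the highest and lowest log2 change at 200 ng/ml and genes that differ in call, and, after their values were seen, the members of counts of 5 or fewer, SOCS1, SOCS3, IFNB1, ZC3HAV1, LIPA, KIF20B and SLC16A12. For each member it names the 5 genes with the highest Pearson's r of log2 CPM. Some genes that these rules select are not reported here.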

Additional observations from a re-analysis of the deposited data

Results flagged for a closer look

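The response to IFNα differed between the line sets, by the interaction of dose and line set in edgeR, for IFIT3 at 200 ng/ml (log2 difference, D-F minus A-C, 1.77) and at 20 ng/ml (1.88), for IFIT1 at 200 ng/ml (1.12) and at 20 ng/ml (1.33), and for IFIT2 at 20 ng/ml (1.03). The untreated levels of these 3 genes were lower in D-F, and the same control samples enter both comparisons. Among 24 sets of the 4 samples of a dose, by TPM or share of the summed TPM, 0 had a sample set apart from the others by Dixon's test. Each set holds samples of both line sets. Where these differ, the values fall into pairs and the test can hardly single out a sample, so no conclusion is drawn from it.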

How the results depend on the processing

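All 4 IFIT genes were called higher at both doses over all samples, and at 200 ng/ml within each line set, under every alternative run except the fit without line set, which called 3 at 20 ng/ml, where IFIT2 had an edgeR adjusted p of 0.0683 (log2 1.77). For single genes, that fit and the fit of the compared groups alone were chosen after seeing the data. Over the alternatives the log2 fold change at 200 ng/ml ranged from 4.76 to 4.98 for IFIT1, 3.42 to 3.77 for IFIT3, 2.48 to 2.69 for IFIT2 and 1.88 to 1.95 for IFIT5. With no minimum fold, 3 members in place of 0 were called between 200 and 20 ng/ml, and 27 genes in place of 17 over the interferon pathway lists at 200 ng/ml. Between the doses, the fit without line set gave an adjusted p of 1 for each member.

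With single samples left out, the number of members called for a different response ranged from 1 to 3 at 200 ng/ml and from 1 to 3 at 20 ng/ml, the log2 difference of IFIT5 between untreated line sets from -0.074 to 0.061, and the change in the share of IFIT3 from -3.38 to 3.93 percentage points. These fits have fewer samples. The share of IFIT3 was compared as plain means, so leaving out a sample also changes their mix of line sets. The cause of other changes was not tested. Transcripts called at 20 ng/ml fell from 5 to 4 without A1, A2, D1 or D2.

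Deviations of same-numbered samples correlated at -0.0453 to 0.056 over genes, so no general pairing by replicate number was seen. Whether same-numbered samples shared a culture or batch was not tested. With the replicate number as a block, 1 member in place of 2 was called for a different response at 200 ng/ml and 1 in place of 3 at 20 ng/ml, and between the doses the adjusted p was 0.114 for IFIT1, 0.0663 for IFIT2 and 0.0678 for IFIT3. With 2 replicates per letter, differences near 2-fold are the least certain.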
